A study of Mus musculus with 12 samples.

Results

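The genes described here are 10 members of the Hippo pathway and its transcriptional output, taken by name from a table of 55421 genes. They are the coactivators Yap1 and Wwtr1 (TAZ), the DNA-binding partner Tead1, the kinases Lats1 and Lats2, the angiomotin-like scaffolds Amotl1 and Amotl2, and the target genes Ccn1 (Cyr61), Ccn2 (Ctgf) and Ankrd1. RNA was sequenced from 2 mouse cell lines after 6 h with 5 nM rebastinib, a small-molecule kinase inhibitor directed at the angiopoietin receptor TIE2, or as controls. The ID8 line comes from ovarian epithelium of female C57BL6J wildtype mice and forms tumours in syngeneic hosts. PMJ2R is a macrophage line from peritoneal lavage of female C57BL6J mice, carrying the v-raf and v-myc oncogenes, which the treated and the control cells share. There were 4 groups of 3 libraries each, namely ID8 with rebastinib, ID8 control, PMJ2R with rebastinib and PMJ2R control. The labels do not say whether the controls received a vehicle, nor whether the 3 libraries of a group came from separate cultures. The p-values therefore set the group differences against the scatter of these libraries, and that scatter may be only technical. The chemotherapy arms named in the study's design are not analysed here.

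In the Hippo pathway, the kinases MST1 and MST2 and their adaptors activate LATS1 and LATS2, which phosphorylate YAP and TAZ and hold them in the cytoplasm. When this brake is off, as on stiff substrates or at low density, YAP and TAZ enter the nucleus and switch on genes through TEAD proteins. The targets include the secreted matricellular proteins CCN1 and CCN2, the nuclear ankyrin-repeat protein ANKRD1 and, as negative feedback, LATS2 and AMOTL2. In ovarian carcinoma YAP is known as a driver of proliferation, whereas many blood cell lineages carry little YAP or TAZ.

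The promoter windows of 4 members are shown because they hold the core TEAD motif, GGAATG or its reverse complement CATTCC, in or beside genes that serve as readouts of YAP-TEAD activity. Each window runs 5′ to 3′ on the gene's strand from 250 bases before the RefSeq start site to 50 after it, in build GRCm38.p6, and capitals mark the motif. They are Ccn1 at chr3:145649936-145650235 (minus strand), Ankrd1 at chr19:36119795-36120094 (minus strand), Amotl2 at chr9:102717554-102717853 (plus strand) and the first of the 2 Lats2 windows at chr14:57746074-57746373 (minus strand).
Ccn1: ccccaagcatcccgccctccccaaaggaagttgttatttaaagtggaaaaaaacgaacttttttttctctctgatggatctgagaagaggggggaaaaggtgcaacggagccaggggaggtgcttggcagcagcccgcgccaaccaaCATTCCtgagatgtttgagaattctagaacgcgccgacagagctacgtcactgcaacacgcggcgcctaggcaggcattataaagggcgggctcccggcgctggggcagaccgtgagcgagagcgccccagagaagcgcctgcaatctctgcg
Ankrd1: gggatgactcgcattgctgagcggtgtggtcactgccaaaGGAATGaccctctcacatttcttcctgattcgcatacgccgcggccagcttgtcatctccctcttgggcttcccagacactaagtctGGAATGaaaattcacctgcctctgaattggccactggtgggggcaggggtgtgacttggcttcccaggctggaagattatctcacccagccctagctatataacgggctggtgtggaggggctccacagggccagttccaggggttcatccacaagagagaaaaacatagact
Amotl2: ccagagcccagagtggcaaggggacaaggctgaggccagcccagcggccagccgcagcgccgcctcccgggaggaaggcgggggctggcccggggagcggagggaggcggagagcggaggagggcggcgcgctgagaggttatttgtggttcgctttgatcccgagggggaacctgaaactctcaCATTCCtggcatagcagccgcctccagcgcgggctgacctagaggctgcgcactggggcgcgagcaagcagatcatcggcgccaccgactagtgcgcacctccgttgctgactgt
Lats2: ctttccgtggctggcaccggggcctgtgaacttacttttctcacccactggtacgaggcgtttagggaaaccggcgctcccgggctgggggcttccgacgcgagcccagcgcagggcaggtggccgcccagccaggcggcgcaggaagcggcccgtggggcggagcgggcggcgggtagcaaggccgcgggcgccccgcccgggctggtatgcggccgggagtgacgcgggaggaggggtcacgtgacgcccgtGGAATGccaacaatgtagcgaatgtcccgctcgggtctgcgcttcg

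Windows were found for 8 of the 10 members, all but Ccn2 and Tead1, and 6 of those genes held the motif in at least 1 window. The motif began 103 bases before the start of Ccn1, 65 before Amotl2, 141 before Yap1, and 210 and 123 before Ankrd1. Wwtr1 has 2 overlapping windows that hold the same motif site, which began 136 bases before one start site and 170 before the other. In the first Lats2 window the motif began 4 bases after the start. Lats1, Amotl1 and the second Lats2 window did not hold these letters. Across all RefSeq promoter windows of this length, 4817 of 32851 (14.7%) held the motif on either strand, and it stood in 7 of 17 windows (41.2%) of the listed YAP-TEAD targets. These 17 include the windows of Ccn1, Ankrd1, Amotl2 and Lats2 shown above for holding the motif, so nothing is read from the difference. The AP-1 motif TGANTCA, in 7.81% of all windows, and the CArG box bound by SRF, in 1.63%, were in none of the members' windows. A match describes the sequence only and does not show binding.

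Library totals ran from 19025504 to 27070556 counts, and the fewest counts of a member in an ID8 group were the 1176 of Lats2 in control. Macrophage markers stood at or above 1 CPM (counts scaled to a common library size) for 10 of 10 genes in both PMJ2R groups, and ovarian surface markers for 8 of 10 in rebastinib and 10 of 10 in control ID8 libraries. The rebastinib libraries gave more of their counts to genes overlapping ribosomal RNA, 1.05% to 1.6% in ID8 and 5.63% to 5.99% in PMJ2R, against 0.106% to 0.355% in ID8 control and 0.0927% to 0.172% in PMJ2R control. Ribosomal protein genes took 8.57% to 10.6% and 4.66% to 5.38% of the counts in rebastinib and control ID8 libraries, and 7.59% to 7.9% and 4.98% to 5.75% in PMJ2R. The part of this shift in the results was not tested, and a difference in handling between the rebastinib and the control libraries cannot be told apart from the treatment. CPM values below were scaled with TMM factors, which centre most genes at no change. With library totals alone the median log2 fold change of all genes moved to -0.50, against -0.07 with TMM, in ID8 and to -0.60, against -0.05 with TMM, in PMJ2R. The share of called genes that were higher moved to 29.5%, against 47.7% with TMM, in ID8 and to 26.3%, against 47.9% with TMM, in PMJ2R. In these bulk samples less RNA of a gene per cell and fewer cells with that RNA cannot be told apart.

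In ID8 cells the response of the pathway was mixed. In TMM-scaled CPM Ccn2 fell to 32.5% of the control level, Ccn1 and Tead1 fell by less, and Yap1 and the kinase Lats2 rose. Wwtr1, Lats1, both angiomotin-like genes and Ankrd1 did not pass the test. With edgeR's quasi-likelihood test at a Benjamini-Hochberg adjusted p of 0.05 over all 14829 genes tested, 2 members were higher and 3 lower of 10, against 80.4% of all genes called (38.4% higher and 42.0% lower). The groups did not overlap for 6 of 10 members, against 82.2% of all genes. The members' median log2 fold change was -0.13 and that of all genes -0.07. Both shares of the members lie below the share among all genes.

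**Figure D1:**
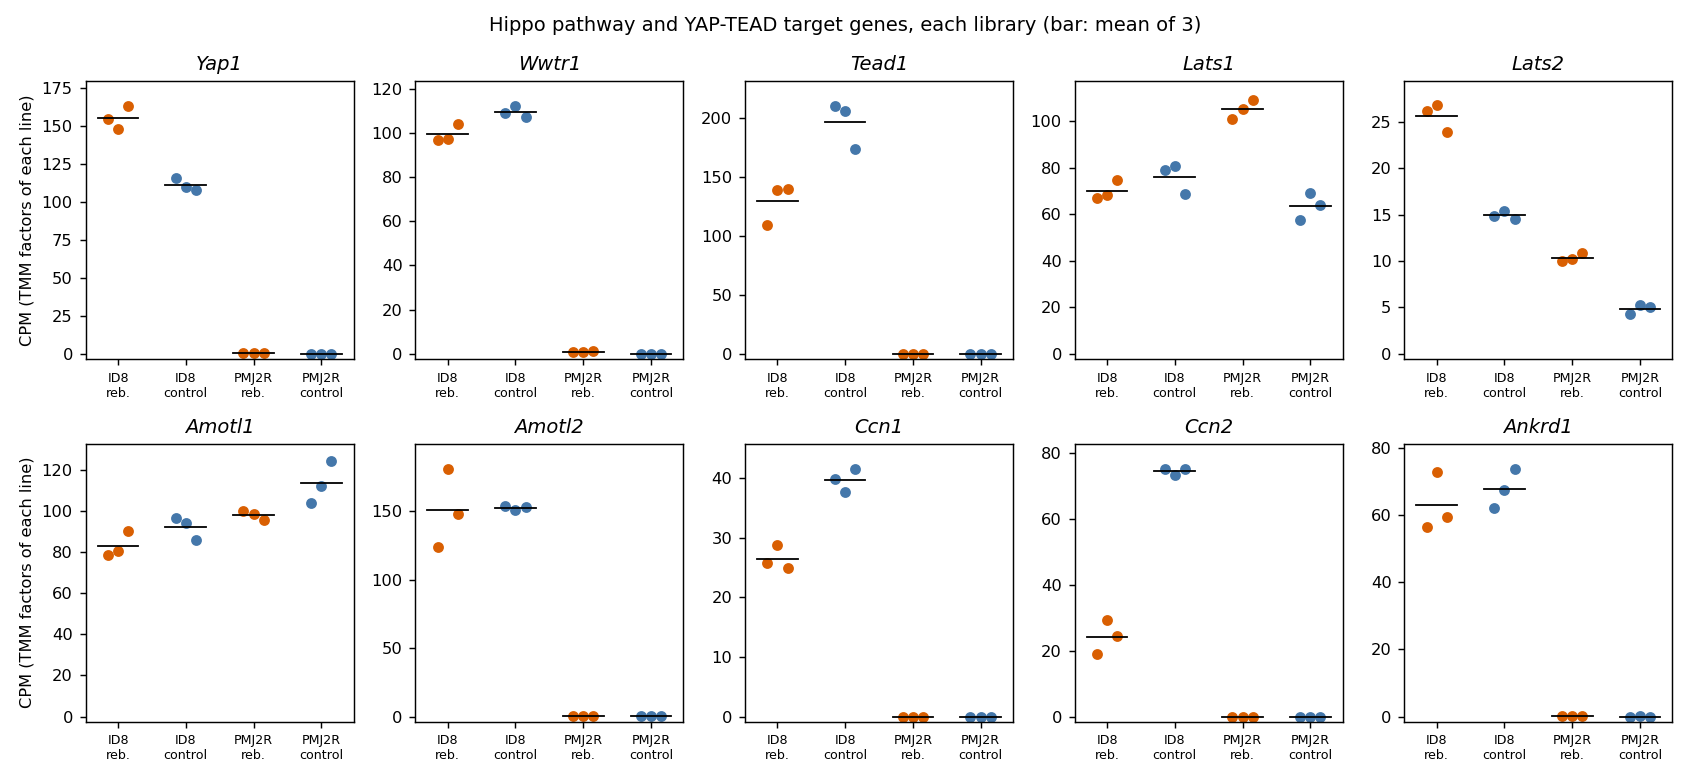
Each panel shows 1 gene, with points for the 3 libraries of each group (CPM scaled with the TMM factors of each line) and bars for their mean; rebastinib is orange and control blue. Ccn2 in ID8 stood between 19 and 29.3 CPM with rebastinib, below all control libraries, and PMJ2R held 3 of the 10 genes, Lats1, Lats2 and Amotl1, at 4.26 CPM or more in every library.

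YAP and TAZ are the paralogous coactivators that carry the pathway's signal to DNA. Yap1 had 155, 148 and 163 CPM in ID8 rebastinib libraries, against 116, 110 and 108 CPM in control. Every rebastinib library stood above every control library, and the log2 fold change was 0.48 (SE 0.0681, adjusted p = 1.48e-05, edgeR quasi-likelihood test). This rise rests on the scaling: with library totals alone Yap1 had a log2 fold change of 0.04 (adjusted p = 0.598), and the group sums were 8799 counts with rebastinib and 8790 in control. Of the Yap1 exons, 116 bases overlap the opposite-strand transcript Gm20416, which had 1002 counts in all libraries together. Wwtr1 had 97.0, 97.3 and 104 CPM with rebastinib, against 109, 112 and 107 CPM in control. The groups did not overlap, yet the log2 fold change of -0.14 (SE 0.0669) missed the threshold at an adjusted p of 0.0658. It passed, as lower, with library totals alone (-0.57), with genes kept at a mean of 5 CPM or more (-0.23, adjusted p = 0.00523) and without the third rebastinib library (-0.16, adjusted p = 0.0471).

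The ratio of Yap1 to Wwtr1 within a library does not depend on the scaling between libraries. TPM is a level corrected for transcript length and scaled to each library's sum, without TMM factors. In TPM the ratio was 0.825, 0.787 and 0.81 with rebastinib, against 0.549, 0.508 and 0.521 in control. The mean ratio was 1.53 times as high with rebastinib, and the 2 groups did not overlap. The TPM level of Yap1 itself was lower with rebastinib, at 33.5, 34.0 and 41.9, against 48.5, 46.8 and 42.9 in control. Such ratios were chosen after the values were seen, and with 3 libraries against 3 the two-sided exact permutation test cannot go below p = 0.1, the value found here and for each of the other ratios given below.

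TEAD proteins bind DNA for YAP and TAZ, which carry no DNA-binding domain of their own. Tead1 had 109, 139 and 140 CPM in ID8 rebastinib libraries, against 210, 206 and 174 CPM in control. The groups did not overlap, and the first rebastinib library was the lowest. Tead1 fell by 0.60 on the log2 scale (SE 0.0987, adjusted p = 5.56e-05). The size depended on the processing, with -1.04 for library totals alone and -0.17 with the trends over transcript length and GC content removed, both still called as lower.

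Tead1 is 1 of 4 TEAD paralogs, and the other three were on a list of coactivators, TEADs and VGLL cofactors. Of the 10 genes on that list 8 were tested in ID8, with 4 higher, 3 lower and 1 not called, and a median log2 fold change of 0.17. Among all genes tested 38.4% were called higher and 42.0% lower, with a median of -0.07. Tead4 had 37.7, 38.0 and 40.8 CPM with rebastinib, against 10.3, 10.1 and 9.80 CPM in control, a log2 fold change of 1.95 (SE 0.0888, adjusted p = 1.52e-10). This change lay at percentile 97.0 of all genes tested, and it stayed called and higher with library totals alone (1.52) and with length and GC trends removed (2.09). Tead2 averaged 4.49 ± 0.509 CPM with rebastinib and 8.09 ± 0.534 CPM in control (SD, n = 3 each). Tead3, the least abundant paralog, averaged 1.95 ± 0.793 CPM with rebastinib and 5.55 ± 0.383 CPM in control. Both fell, with log2 fold changes of -0.86 for Tead2 (adjusted p = 5.04e-05) and -1.53 for Tead3 (adjusted p = 1.91e-05, edgeR). Each of the 4 paralogs kept its direction and call under every alternative that tested it.

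The makeup of the TEAD family shifted within each ID8 library. Tead4 made up 52.4%, 48% and 50% of the summed TEAD TPM with rebastinib, against 13.7%, 13.7% and 15.1% in control. Tead1 made up 40.3%, 46.5% and 45.5% with rebastinib, against 74.2%, 73.8% and 71.3% in control. The groups did not overlap for any of the 4 paralogs, with an exact permutation p of 0.1. These shares are free of the scaling between libraries but not of trends with transcript length, and the exons of Tead1 span 13570 bases against 3598 for Tead4.

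**Figure D2:**
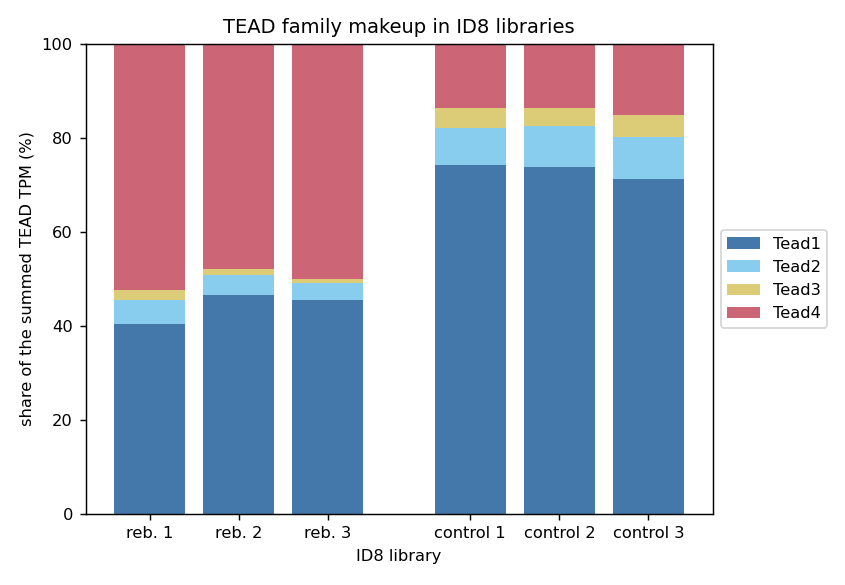
Stacked bars give the share of each TEAD paralog in the summed TEAD level (TPM) of each ID8 library, rebastinib on the left and control on the right. Tead4 takes 48% to 52.4% with rebastinib, against 13.7% to 15.1% in control, and Tead1 takes the largest share in every control library.

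VGLL4 competes with YAP for TEAD binding and acts as a corepressor. Vgll4 had 79.4, 79.7 and 92.2 CPM in ID8 rebastinib libraries, against 35.6, 33.5 and 38.8 CPM in control, a log2 fold change of 1.22 (SE 0.0852, adjusted p = 8.96e-09, edgeR). Vgll3, another TEAD cofactor, averaged 20.4 ± 3.78 CPM with rebastinib and 14.2 ± 1.01 CPM in control (SD, n = 3 each). Its log2 fold change of 0.53 (adjusted p = 0.00147) was not called with library totals alone (0.10, adjusted p = 0.529).

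LATS1 and LATS2 are the kinases that phosphorylate YAP and TAZ. Lats1 had 66.9, 68.3 and 74.5 CPM in ID8 rebastinib libraries, against 78.8, 80.7 and 68.7 CPM in control. The groups overlapped and the log2 fold change of -0.12 (SE 0.0803) did not pass the test at an adjusted p of 0.180. The direction was not stable, since Lats1 was called lower with library totals alone (-0.55), with genes kept at 5 CPM or more on average (-0.21) and without the third control library (-0.20), and higher with length and GC trends removed (0.16, adjusted p = 0.0158). Lats2, itself a YAP-TEAD target, had 26.2, 26.9 and 23.9 CPM with rebastinib, against 14.9, 15.4 and 14.6 CPM in control. It rose by 0.78 on the log2 scale (SE 0.0906, adjusted p = 1.83e-06), with no overlap, by 0.34 with library totals alone and by 1.08 with the trends removed. The Lats2 exons share 2955 bases with Gm49361, which had 0 counts. Lats2 made up 29.1%, 29.2% and 25.2% of the summed LATS level (TPM) with rebastinib, against 16.5%, 16.6% and 18.2% in control. Its own level averaged 7.95 TPM with rebastinib and 8.18 TPM in control, with overlap, so its rise is not seen in TPM.

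Of the 22 kinases and adaptors on a list of the core cascade and its alternative upstream kinases, all were tested in ID8, and 6 were higher, 8 lower and 8 not called. Their median log2 fold change was -0.13, against -0.07 for all genes, of which 38.4% were called higher and 42.0% lower. The 8 lower include Map4k1, whose call is a description, since it passed the filter on low counts through its control libraries. Nf2, which encodes the tumour suppressor Merlin that recruits LATS to the membrane, averaged 42.2 ± 2.33 CPM with rebastinib and 110 ± 0.340 CPM in control (SD, n = 3 each), a log2 fold change of -1.38 (adjusted p = 5.12e-10). Stk3, which encodes MST2, fell by 1.24, Map4k2 by 1.21 and the kinase Taok3 by 2.67 on the log2 scale. Besides Lats2, the higher calls with the smallest p were the LATS-related kinase Stk38l at 0.73, Mink1 at 0.64 and the LATS cofactor Mob1b at 0.49, which was not called with library totals alone (0.05, adjusted p = 0.643).

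AMOTL1 and AMOTL2 are junction-associated scaffolds that bind YAP and can hold it outside the nucleus. Amotl1 had 78.5, 80.5 and 90.2 CPM in ID8 rebastinib libraries, against 96.6, 94.3 and 85.8 CPM in control, with overlap, and the log2 fold change was -0.15 (SE 0.0779, adjusted p = 0.0905). It was called lower with library totals alone (-0.58), with genes kept at 5 CPM or more on average (-0.24), without the third control library (-0.21) and without the third rebastinib library (-0.20), and higher with length and GC trends removed (0.34, adjusted p = 3.37e-05). Amotl2 had 124, 181 and 148 CPM with rebastinib, against 154, 151 and 153 CPM in control. The rebastinib libraries lay on both sides of the control range, and the log2 fold change of -0.01 (SE 0.104, adjusted p = 0.902) was called neither way. Amotl2 was called lower with library totals alone (-0.45) and higher with length and GC trends removed (0.29, adjusted p = 0.0243). On the list of junction and polarity inputs, 5 genes were higher, 6 lower and 6 not called of 17 tested, against 38.4% higher and 42.0% lower among all genes. The scaffold Amot averaged 3.80 ± 0.968 CPM with rebastinib and 9.99 ± 0.842 CPM in control, a log2 fold change of -1.37 (adjusted p = 2.41e-06). Limd1, a LIM protein that restrains LATS, rose by 0.94 (adjusted p = 1.48e-08), and its relative Ajuba fell by 0.72 (adjusted p = 4.09e-07, edgeR).

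The target genes are the usual transcriptional readouts of YAP and TAZ. Ccn2 had 19, 29.3 and 24.3 CPM in ID8 rebastinib libraries, against 75.1, 73.2 and 75.1 CPM in control. Rebastinib libraries held 32.5% of the control level, and the groups did not overlap. Ccn2 fell by 1.62 on the log2 scale (SE 0.116, adjusted p = 1.13e-08), at percentile 14.3 of all genes tested. An overlap of 665 exon bases with the opposite-strand transcript Gm15270, which had 2426 counts in all libraries together, leaves the split of those reads uncertain. Ccn1 had 25.8, 28.7 and 24.9 CPM with rebastinib, against 39.9, 37.6 and 41.5 CPM in control, with no overlap. It fell by 0.59 on the log2 scale (SE 0.0857, adjusted p = 1.90e-05), by 1.02 with library totals alone and by 0.75 with the trends removed. Ankrd1 had 56.6, 73.0 and 59.5 CPM with rebastinib, against 62.3, 67.7 and 73.8 CPM in control. Its groups overlapped, and the log2 fold change of -0.11 (SE 0.0972) did not pass at an adjusted p of 0.306. It was called lower with library totals alone (-0.54) and with length and GC trends removed (-0.36, adjusted p = 0.000856).

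The 3 targets moved by different amounts within the same libraries. The ratio of Ccn2 to Ccn1 in TPM was 0.522, 0.722 and 0.689 with rebastinib, against 1.33, 1.37 and 1.28 in control, and the ratio of Ccn2 to Ankrd1 was 0.339, 0.406 and 0.413 with rebastinib, against 1.21, 1.09 and 1.03 in control. Neither ratio overlapped between groups (exact permutation p = 0.1 each, two-sided). Ccn2 had the highest level per transcript length of the 10 members in every ID8 control library, and stood below Amotl2, Ankrd1, Wwtr1, Yap1 and Ccn1 in every rebastinib library.

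**Figure D3:**
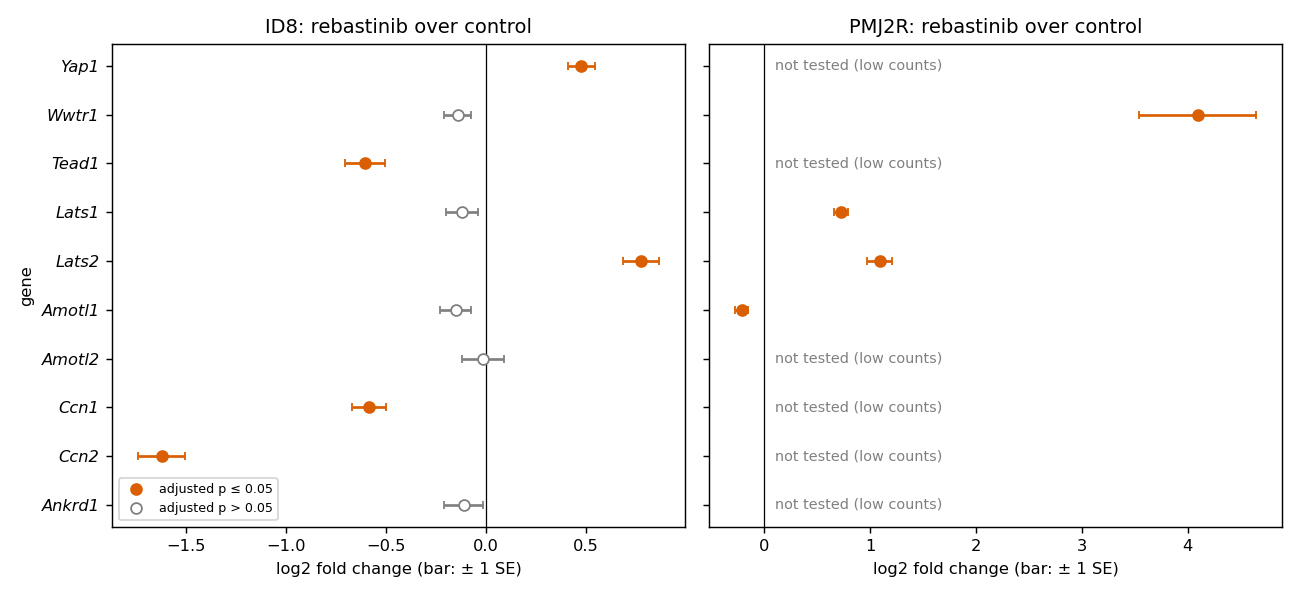
Log2 fold changes of rebastinib over control with 1 SE on either side for the 10 members, ID8 on the left and PMJ2R on the right, filled where the adjusted p was at most 0.05. In ID8 Ccn2 stands apart at -1.62. In PMJ2R 6 members did not pass the filter on low counts and have no point. The filled PMJ2R point of Wwtr1 is a description, since Wwtr1 passed that filter only through its rebastinib libraries.

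Of the CCN family of 6 secreted matricellular proteins, 3 genes were tested in ID8. All 3 fell, Ccn2, Ccn1 and Ccn4, against 42.0% of all genes called lower. Ccn4 averaged 57.4 ± 4.40 CPM with rebastinib and 128 ± 0.718 CPM in control (SD, n = 3 each), a log2 fold change of -1.15 (adjusted p = 3.92e-09). The 3 were called lower under every alternative. A broader list of 22 YAP-TEAD targets, which holds Ccn1, Ccn2, Ankrd1, Lats2 and Amotl2, had 21 genes tested in ID8, with 3 higher, 11 lower and 7 not called. Its median log2 fold change was -0.38, against -0.07 for all genes, of which 38.4% were called higher and 42.0% lower. With library totals alone the counts were 2 higher and 19 lower, against 3540 and 8475 of all 14829 genes. The median was then -0.81, against -0.50 for all genes. With length and GC trends removed 6 were higher and 11 lower, against 5672 and 6415 of all genes, with a median of -0.22 against -0.08. Arhgef17 had the largest fall on the list, to 51.2 ± 7.65 CPM with rebastinib, against 201 ± 14.5 CPM in control, a log2 fold change of -1.97 (adjusted p = 3.78e-10). Tgfb2, a growth factor, fell by 1.15 (adjusted p = 2.97e-08). Ptpn14, a phosphatase that restrains YAP, had a log2 fold change of -0.59 (adjusted p = 1.28e-05), which became -0.01 and was not called with length and GC trends removed. The higher genes were Lats2, the kinase Nuak2 at 0.86 (adjusted p = 7.70e-07) and the receptor kinase Axl at 0.24 (adjusted p = 0.00481), which was called lower (-0.20) with library totals alone and was not called with genes kept at 5 CPM or more on average (0.15).

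**Figure D4:**
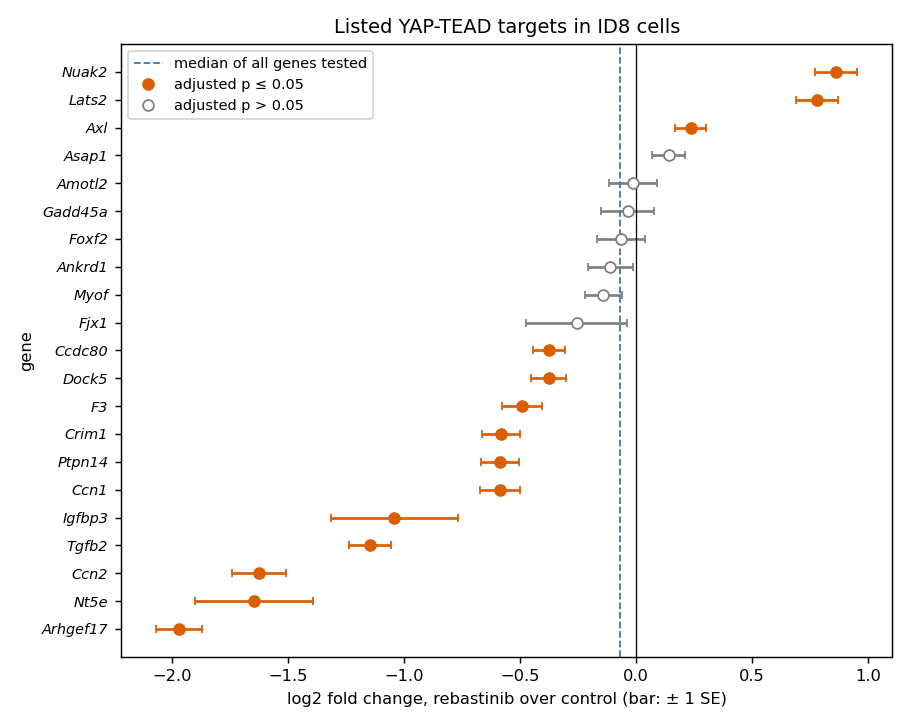
Log2 fold change of rebastinib over control in ID8 cells, with 1 SE on either side, for the 21 listed YAP-TEAD targets that were tested; filled points had an adjusted p of at most 0.05 and the dashed line is the median of all genes. There are 11 filled points below 0 and 3 above it, against 42.0% of all genes called lower and 38.4% higher.

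Other genes that touch YAP and TAZ gave a median above that of all genes. The counts below stand against 38.4% higher and 42.0% lower among all genes tested in ID8. Of 11 genes for 14-3-3 proteins, casein kinases and ubiquitin ligase adaptors, which hold YAP in the cytoplasm or send it to degradation, 6 were higher, 3 lower and 2 not called in ID8, with a median log2 fold change of 0.60. Csnk1d averaged 290 ± 12.6 CPM with rebastinib and 141 ± 1.13 CPM in control, and Ywhab 439 ± 25.8 CPM with rebastinib and 208 ± 3.57 CPM in control (SD, n = 3 each). Their log2 fold changes were 1.04 for Csnk1d (adjusted p = 3.01e-09) and 1.08 for Ywhab (adjusted p = 3.53e-09), while Ywhag fell by 0.85 (adjusted p = 3.05e-08). Of 13 tested genes of STRIPAK, the phosphatase complex that silences the MST kinases, 8 were higher, 2 lower and 3 not called, with a median of 0.21. The phosphatase scaffold Ppp2r1a rose by 1.09 (adjusted p = 8.98e-09) and Sike1 fell by 1.88 (adjusted p = 1.86e-10). The list of SRF, its MRTF cofactors and their targets had 7 higher, 6 lower and 3 not called of 16, with a median of 0.15. The 7 higher include Acta2 and Tpm2, which passed the filter on low counts only through their rebastinib libraries. Acta2 had 1.08, 2.28 and 1.70 CPM with rebastinib, against 0.271, 0.270 and 0.371 CPM in control. Both calls are descriptions, and the median of this list rests in part on them.

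The order of the members by level per transcript length differed between the ID8 groups. With rebastinib it ran Amotl2 (52.2 TPM), Ankrd1 (47.3), Wwtr1 (45.2), Yap1 (36.5), Ccn1 (28.4), Lats1 (20.8), Tead1 (20.8), Ccn2 (18.4), Amotl1 (18.0) and Lats2 (7.95). Libraries of neighbours overlapped from Amotl2 down to Yap1 and from Lats1 down to Amotl1, so the order within those runs is not resolved. In control it ran Ccn2 (99.3 TPM), Amotl2 (92.5), Ankrd1 (89.6), Wwtr1 (87.6), Ccn1 (74.9), Tead1 (55.4), Yap1 (46.1), Lats1 (39.8), Amotl1 (35.0) and Lats2 (8.18). Here the libraries overlapped from Amotl2 to Wwtr1 and from Tead1 to Amotl1. Lats2 was the lowest member in both groups, with no overlap with the gene above it.

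PMJ2R cells held a different part of the pathway. In TMM-scaled CPM Lats1 and Lats2 rose with rebastinib and Amotl1 was slightly lower. The coactivators, Tead1, Amotl2 and the 3 target genes were near or at 0 in both groups. Of the 10 members, 4 passed the filter on low counts, and Wwtr1 passed it only through its rebastinib libraries. In the edgeR test Lats1 and Lats2 were higher and Amotl1 lower, against 83.7% of all 14010 genes called (40.1% higher and 43.6% lower). Wwtr1 was called higher too, but since it was tested only because of its rebastinib libraries, that call is a description and is not counted here. The groups of Lats1, Lats2 and Amotl1 did not overlap, against 84.4% of all genes without overlap, so nothing is read from their share.

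Lats1 had 101, 105 and 109 CPM in PMJ2R rebastinib libraries, against 57.4, 68.9 and 64.0 CPM in control. It rose by 0.73 on the log2 scale (SE 0.0622, adjusted p = 4.21e-09), by 0.17 with library totals alone (adjusted p = 0.0165). Lats2 had 9.97, 10.2 and 10.9 CPM with rebastinib, against 4.26, 5.27 and 5.02 CPM in control. Its log2 fold change was 1.09 (SE 0.118, adjusted p = 1.07e-07), 0.53 with library totals alone and 1.42 with the trends removed. In TMM-scaled CPM both kinases stood higher in every rebastinib library than in any control library. In TPM Lats1 did not rise, with 29.4, 30.6 and 32.1 with rebastinib, against 30.6, 36.8 and 33.5 in control. Lats2 stayed higher in TPM, with 3.02, 3.12 and 3.36 with rebastinib, against 2.38, 2.94 and 2.75 in control. Lats2 made up 9.32%, 9.25% and 9.48% of the summed LATS level (TPM) with rebastinib, against 7.22%, 7.4% and 7.59% in control. Amotl1 had 99.9, 98.6 and 95.6 CPM with rebastinib, against 104, 112 and 124 CPM in control, a log2 fold change of -0.21 (SE 0.0597, adjusted p = 0.00337). This direction turned round with length and GC trends removed (0.12, adjusted p = 0.0220), while library totals alone gave -0.77.

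Wwtr1 was counted 14, 13 and 22 times in the PMJ2R rebastinib libraries and 0, 2 and 3 times in control. The ratio of the group sums per library total was 12.6 (95% counting interval 5.07 to 40.7), and the fitted log2 fold change was 4.09 (SE 0.554). This value is given as a description with no test, since the filter let Wwtr1 in through the rebastinib libraries alone. Yap1 was counted 7, 5 and 6 times with rebastinib and 2, 0 and 3 times in control, a ratio of 4.65 (1.66 to 16.0). Ankrd1 was counted 3, 2 and 3 times with rebastinib and 0, 1 and 0 times in control, a ratio of 10.3 (1.38 to 458). Amotl2 had 19 counts in all with rebastinib and 15 in control, a ratio of 1.63 (0.787 to 3.46), and Tead1 had 4 with rebastinib and 1 in control. Ccn1 and Ccn2 had no count in any PMJ2R library, which at 3 counts a group allows up to 0.0514 CPM with rebastinib and 0.0398 CPM in control. Intervals and floors cover counting error only. Without the filter on low counts the edgeR test called Yap1 (2.46, adjusted p = 0.00588) and Ankrd1 (3.23, adjusted p = 0.0385) higher, and DESeq2 called Yap1 (2.74, adjusted p = 0.0240).

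These counts were small beside those in ID8. PMJ2R rebastinib libraries held 0.974% of the ID8 rebastinib level of Wwtr1, 0.229% of that of Yap1, 0.254% of that of Ankrd1, 0.251% of that of Amotl2 and 0.0611% of that of Tead1, in CPM over library totals. Markers of other cell types were also counted at traces in these libraries. The sum over 10 ovarian surface markers was 0.157 to 0.420 CPM in PMJ2R rebastinib libraries and 0.0369 to 0.279 CPM in PMJ2R control, against 2890 to 2990 CPM in ID8 with rebastinib and 4510 to 4740 CPM in ID8 control. Of these markers Krt19, Msln and Gpm6a had no count in the PMJ2R rebastinib libraries, and 0 of 10 reached 1 CPM. The sum over 7 fibroblast markers was 0.473 to 0.627 CPM with rebastinib and 0.0398 to 0.172 CPM in control. Their part in the Wwtr1, Yap1 and Ankrd1 counts was not tested.

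Around these members, 8 of the 20 tested kinases and adaptors were higher, 11 lower and 1 not called in PMJ2R. Among all genes 40.1% were called higher and 43.6% lower. The median log2 fold change was -0.33, against -0.05 for all genes. The LATS cofactor Mob1b averaged 136 ± 2.78 CPM with rebastinib and 34.0 ± 2.74 CPM in control, and its paralog Mob1a 495 ± 4.09 CPM with rebastinib and 214 ± 22.6 CPM in control (SD, n = 3 each). Their log2 fold changes were 1.99 (adjusted p = 2.57e-15) for Mob1b and 1.21 (adjusted p = 6.04e-12) for Mob1a. Map4k4 rose by 1.08 and Taok1 by 0.92. Stk4, which encodes MST1, averaged 76.8 ± 1.30 CPM with rebastinib and 166 ± 3.24 CPM in control, a log2 fold change of -1.11 (adjusted p = 2.04e-13). Taok2 fell by 1.73, Taok3 by 1.77 and Map4k1 by 1.22. Vgll4 had 7.41, 8.89 and 7.74 CPM with rebastinib, against 28.3, 34.8 and 31.2 CPM in control, a log2 fold change of -1.97 (adjusted p = 2.87e-12, edgeR).

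Of the 22 listed YAP-TEAD targets 7 were tested in PMJ2R, with 4 higher and 3 lower. This and the other list counts here stand against 40.1% higher and 43.6% lower among all genes tested in PMJ2R. Gadd45a, a stress-response gene, averaged 3.27 ± 0.134 CPM with rebastinib and 0.638 ± 0.0917 CPM in control (SD, n = 3 each), a log2 fold change of 2.35 (adjusted p = 1.37e-08). The other higher genes besides Lats2 were Crim1 at 0.50 and Nuak2 at 0.24, which had -0.05 and -0.32 with library totals alone. Nuak2 was also not called without the filter on low counts (0.03). Asap1 fell by 1.18 (adjusted p = 2.41e-12). Dock5 had -0.31 and Myof -0.20 (adjusted p = 0.00400), which became -0.08 for Dock5 and 0.03 for Myof, neither called, with length and GC trends removed. The median of the 7 was 0.24 and -0.32 with library totals alone. None of the 6 CCN genes passed the filter in PMJ2R. On the list of junction and polarity inputs 4 genes were higher, 7 lower and 1 not called of 12, and Limd1 rose by 1.61. The 7 lower include the atypical cadherin Dchs1, with 0.0639, 0.600 and 0.507 CPM with rebastinib, against 6.06, 6.68 and 6.74 CPM in control. Its log2 fold change of -4.02 is a description, since Dchs1 passed the filter on low counts through its control libraries. The 14-3-3 and degradation list held 11 tested genes, 7 of them higher and 4 lower, and its median was 0.89. STRIPAK genes had 9 higher, 2 lower and 2 not called of 13, with a median of 0.58. The list of SRF, MRTF cofactors and their targets had 7 higher, 4 lower and 2 not called of 13, with a median of 0.51. Its 4 lower genes include Tagln, whose call is a description too, since Tagln passed the filter through its control libraries.

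Whether the response differed between the lines was tested as an interaction over all 12 libraries, in which 52.4% of 16566 genes were called (21.8% higher and 30.6% lower in PMJ2R than in ID8). Among the members well counted in both lines, the response of Lats1 was called higher in PMJ2R. The difference for Lats1, PMJ2R minus ID8, was 0.79 on the log2 scale (SE 0.108, adjusted p = 1.41e-06, edgeR), and it was called in the same direction under every alternative. The fit also called Wwtr1 (4.18), Yap1 (2.13) and Ankrd1 (3.46) higher. These 3 entered it through the ID8 libraries and rest on the few PMJ2R counts given above, so their values are descriptions. The differences for Lats2 (0.26, SE 0.146, adjusted p = 0.150) and Amotl1 (-0.12, SE 0.106, adjusted p = 0.369) did not pass, and Lats2 passed with DESeq2 (0.38, adjusted p = 0.0463), with RLE size factors (0.38) and with a mean of at least 5 CPM (0.34). Amotl1 passed, as -0.42, with length and GC trends removed. Tead1 (3.0, adjusted p = 0.0707) and Amotl2 (1.20, adjusted p = 0.123) did not pass. Tead1, with 5 PMJ2R counts in all, passed with DESeq2 (3.49), with limma-voom (2.77), and without the first ID8 rebastinib (2.89), the third ID8 control (3.07) or the first PMJ2R control library (4.59). Amotl2 passed with DESeq2 (1.35) and without the second ID8 rebastinib (1.33) or the second PMJ2R control library (1.84). For Ccn1 and Ccn2, with no count in PMJ2R, no difference can be had, although limma-voom called both (1.46 for Ccn1 and 2.51 for Ccn2). Outside the members, the cofactor Vgll4, which was higher with rebastinib in ID8 and lower in PMJ2R, differed by -3.25 (SE 0.137, adjusted p = 5.62e-15), and this difference was -3.32 with library totals alone and -3.03 with the trends removed.

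**Figure D5:**
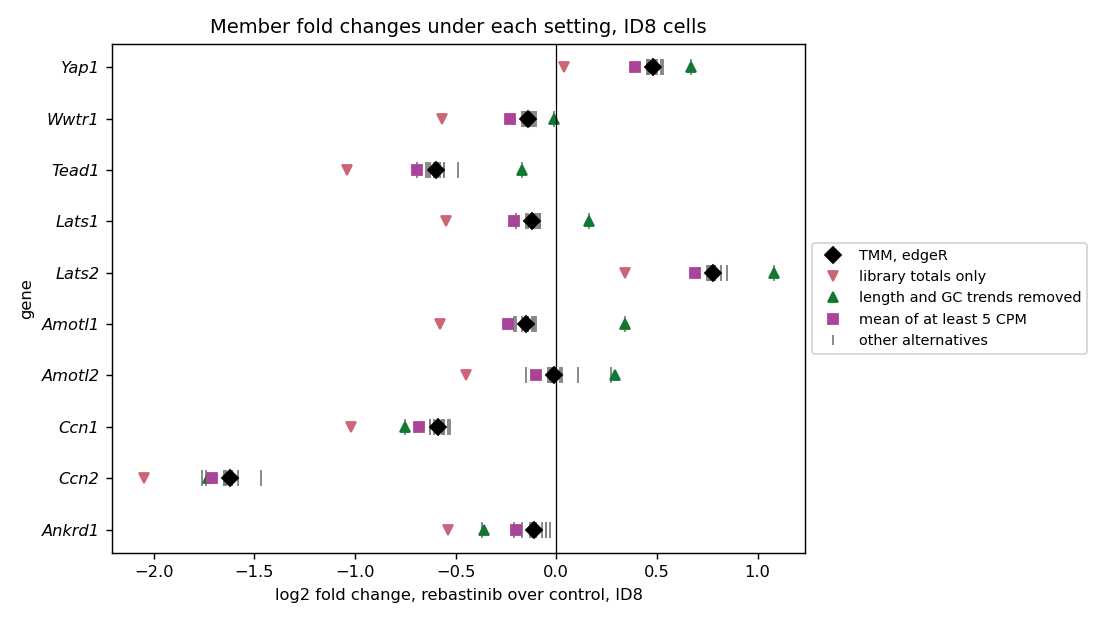
Log2 fold change of rebastinib over control in ID8 for each member under the processing alternatives: black diamonds are the values reported, coloured marks the 3 alternatives named in the legend and grey ticks all others. Ccn2, Ccn1 and Tead1 stay below 0 and Lats2 above 0 at every mark, whereas Lats1, Amotl1 and Amotl2 lie on both sides of 0.

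Between control cells of the lines, most members were lower in PMJ2R. PMJ2R control cells were compared with ID8 control cells at an adjusted p of 0.05 and at least a 2-fold difference, a rule that called 43.7% of 15924 genes (18.1% higher and 25.6% lower). Among the members well counted in both lines, Lats2 was called lower in PMJ2R, and Lats1 and Amotl1 did not pass the 2-fold condition. The libraries of the lines did not overlap for these genes, against 83.1% of all genes without overlap, so nothing is read from their share. Yap1, Wwtr1, Tead1, Amotl2, Ccn1, Ccn2 and Ankrd1 passed the filter on low counts through the ID8 libraries. Their lower values in PMJ2R are therefore a description and are not counted here. The PMJ2R and ID8 control libraries together held 5 and 8790 counts of Yap1, 5 and 8630 of Wwtr1, 1 and 15460 of Tead1, 15 and 12007 of Amotl2, and 1 and 5353 of Ankrd1. Ccn1 had 0 counts in PMJ2R and 3124 in ID8, and Ccn2 0 in PMJ2R and 5862 in ID8, which makes them at least 1160-fold and at least 2170-fold lower in PMJ2R at a floor of 3 counts over the group. Lats2 was lower by a log2 difference of -1.64 (SE 0.104, adjusted p = 1.10e-11). Lats1 differed by -0.28 (adjusted p = 0.00223) and Amotl1 by 0.28 (adjusted p = 0.00166), and Lats1 came to 0.04 with length and GC trends removed.

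Within PMJ2R the order by level per transcript length was Lats1 (30.7 TPM), Amotl1 (20.8) and Lats2 (3.17) with rebastinib, and Amotl1 (43.6 TPM), Lats1 (33.6) and Lats2 (2.69) in control. Libraries of these neighbours did not overlap in either group. The highest of the other members was Wwtr1 at 0.457 TPM with rebastinib and Amotl2 at 0.0976 TPM in control.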

How the data were processed

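The authors deposited raw counts per gene, whole numbers for 55421 Ensembl identifiers in 12 libraries. Per the submitters' processing notes, the tools were STAR 2.6.1c, featureCounts, FastQC and DESeq2, with no role stated, and the build was GRCm38. Annotation, strandedness and multi-mapping rules of the counting were not given in the sources used here, so reads of overlapping or antisense genes cannot be told apart. Groups and replicate numbers came from the sample titles.

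Symbols, positions, exon lengths and GC content came from GENCODE vM21 of the same build, and promoter windows from RefSeq (GRCm38.p6). Counts were tested with edgeR 4.0.16 (R 4.3.3; TMM, default expression filter, robust quasi-likelihood test), each line from its 6 libraries, the difference of response from all 12 and control cells from 6, with Benjamini-Hochberg adjustment over all genes tested. Control cells also had to differ at least 2-fold. The SE is the log2 fold change divided by the square root of F. TPM divided counts by summed exon length and was scaled to each library's sum, without TMM factors. Intervals of count ratios are exact at 95%, and floors are 3 counts over a group. The scripts were tested on simulated data. The lowest chi-square per degree of freedom between replicates was 1.67, so none agreed within sampling noise and each library was kept. Same-numbered libraries did not deviate together, so the test has no block.

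Named are the 10 members in every comparison and, from each pathway list, up to 4 higher and 4 lower called genes with the smallest p. Map4k1, Acta2 and Tpm2 in ID8 are named besides, for how they passed the filter on low counts. The members and lists were chosen with earlier results of these data known. Alternatives were DESeq2 1.42.0, limma-voom (limma 3.58.1), RLE size factors, library totals alone, no filter on low counts, genes with a mean of 5 CPM or more, removal of smooth trends over length and GC content (mgcv 1.9.3), a replicate block with and without that removal, and leaving out each library.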

Additional observations from a re-analysis of the deposited data

Results flagged for a closer look

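The response to rebastinib differed between the lines for the genes below by the edgeR interaction test (log2 fold change in PMJ2R minus that in ID8, adjusted over all genes tested, of which 52.4% passed). Among the members these were Lats1 (0.79), Wwtr1 (4.18), Yap1 (2.13) and Ankrd1 (3.46). Those of Wwtr1, Yap1 and Ankrd1, and of Tead3 (5.20) and Tgfb2 (2.14) outside the members, rest on few PMJ2R counts and entered the fit through ID8, so they are descriptions: Tead3 had 17 with rebastinib and 2 in control.

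Among kinases and adaptors the difference was positive for Mob1b (1.45), Mob1a (0.98), Taok1 (1.03) and Map4k4 (0.80), and negative for Wwc2 (-1.20), Stk38l (-1.11), Mink1 (-1.04) and Taok2 (-0.85). Mink1 and Stk38l were called higher in ID8 and lower in PMJ2R. Among YAP-TEAD targets Gadd45a (2.33) and Crim1 (1.03) had a positive difference, and Asap1 (-1.38) and Nuak2 (-0.68) a negative one. The cofactor Vgll4 (-3.25) was called in opposite directions in the lines. No group had enough libraries for a check of single libraries that stand apart.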

How the results depend on the processing

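Of the checks of single genes under the alternatives, 524 of those of the members kept direction and call, 29 gained a call, 1 lost it and 15 turned round. For the other named genes 2051 kept both, 19 lost the call and 7 turned round. These tallies include genes that passed the filter on low counts through 1 group or line alone. The called members Ccn2, Ccn1, Tead1 and Lats2 in ID8, and Lats1 and Lats2 in PMJ2R, kept direction and call under every alternative, while Yap1 in ID8 lost its call with library totals alone (0.04). TPM was not among the alternatives, and in TPM the rises of Yap1 and Lats2 in ID8 and of Lats1 in PMJ2R are not seen. TPM carries no TMM factors, and in ID8 the mean TPM of every member was lower with rebastinib. Amotl2 had 52.2 TPM with rebastinib and 92.5 in control, though its log2 fold change was -0.01. For Ankrd1 the levels were 47.3 and 89.6 TPM, and the log2 fold change was -0.11. The part of this shared fall in the absent rises was not tested. Values that turned round had the cause not tested.

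In ID8, 5 members were called, against 9 with library totals alone, 8 with genes kept at 5 CPM or more on average and 9 with length and GC trends removed. Of all 14829 genes tested, 11917 were called with the main settings, 12015 with library totals alone and 12087 with the trends removed. With the 5 CPM filter 8764 of 10479 genes were called. Without 1 library, 5 to 7 were called. Removing the trends turned Lats1 to 0.16, Amotl1 to 0.34 and Amotl2 to 0.29 in ID8, Amotl1 to 0.12 and Myof to 0.03 in PMJ2R, and Lats1 to 0.04 between control cells. Amotl2 in ID8 came to 0.03 with RLE size factors and ran from -0.15 to 0.11 without 1 library. With library totals alone Axl in ID8 came to -0.20, and in PMJ2R Frmd6 came to -0.18, Scrib to -0.19, Crim1 to -0.05 and Nuak2 to -0.32. In the difference of response, Amotl1 came to 0.01 with RLE size factors and to 0.00 with DESeq2, and 7 members were called with DESeq2 and 7 with limma-voom, against 4. These counts include members with few or no PMJ2R counts, so nothing is read from them. Between control cells 3973 genes were called with genes kept at 5 CPM or more on average, which tests fewer genes, against 6966.

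With the replicate number as a block, 11418 of 14829 genes were called in ID8 and 11726 of 14010 in PMJ2R. In the difference of response 8116 of 16566 were called, and between control cells 6958 of 15924. The number of called members in ID8 was unchanged at 5. In the other comparisons the called members include genes that passed the filter on low counts through 1 group or line alone, so their number is not given. The deviations of same-numbered libraries correlated at -0.09, -0.04 and -0.23 in ID8 and at 0.02, -0.01 and 0.03 in PMJ2R. The block with trends removed called 9 members and 11710 of all genes in ID8, and gave Lats1 0.16, Amotl1 0.34 and Amotl2 0.27 there. It gave Amotl1 0.12 and Myof 0.03 in PMJ2R, and Lats1 0.04 between control cells. Few or no counts were found in PMJ2R for Yap1, Tead1, Amotl2, Ccn1, Ccn2 and Ankrd1, and these 6 members did not pass the default filter on low counts.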
